A study of Mus musculus with 6 samples.

Results

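Integrins are the adhesion receptors that hold a T cell to other cells and to the extracellular matrix. Each is a pair of 1 alpha and 1 beta chain that both cross the membrane, and the pairing sets the ligand: beta2 integrins bind ICAMs, the alpha4 integrins bind VCAM-1, MAdCAM-1 and fibronectin, alphaE beta7 binds E-cadherin on epithelium, and further beta1 and alphav integrins bind laminins, collagens or RGD-containing matrix proteins. Signals from the T cell receptor and from chemokine receptors reach the beta tails through RAP1, talin and kindlin-3 and raise ligand affinity (inside-out activation), and bound integrins signal back through adhesion complexes. Some alphav integrins also release active TGF-beta, a cytokine needed for TH17 differentiation in mice, from its latent form.

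The integrin chains were chosen by gene symbol. Of 30 symbols of single-gene rows that matched the pattern, 25 named an integrin chain and 5 named integrin-binding or integrin-like proteins. The 25 chains comprise 17 alpha and 8 beta chains out of 30672 genes tested, with 1 array row each. The remaining mouse alpha chain gene, Itga1, is not analysed here because its row also names Pelo. No filter on low values was applied, so all 25 chains were tested.

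RNA was hybridised from mouse TH17-skewed T cells cultured for 3 days without glutamine (3 arrays) or with glutamine (3 arrays), and the comparison asks how the absence of this amino acid changes their transcripts. Both groups started from naive CD4 T cells, sorted by their surface markers, and both received anti-CD3 and anti-CD28 antibodies in IMDM with 10% serum (FBS). The skewing mix, also shared, was 20 ng/ml IL-23, 20 ng/ml IL-6, 1.25 ng/ml TGF-beta and, at 10 ug/ml, antibodies that neutralize IL-12, IL-4 and IFN-gamma. The labels call the 3 arrays of a group biological replicates and give no strain, age or number of mice. The p-values therefore cover only the spread from array to array. Values are log2 levels made by the authors with RMA, a method that corrects background, normalizes arrays and summarises probes. Changes are the mean without minus the mean with glutamine, with limma's adjusted p under 0.05 over all genes as the threshold.

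The array medians lay between 4.33 and 4.38 log2 without glutamine and between 4.18 and 4.21 log2 with it, and each array held 695 to 887 rows above 16 log2. The deposited scale may therefore carry a further, unnamed step, and changes are given as log2 differences, not folds. Over all genes the median change was 0.060 on the deposited scale. It became -0.048 with quantile normalization and -0.095 when each array was centred on its median. All 8 measured T cell markers stood well above the array medians, at means of 8.70 to 17.34 log2 without and 8.76 to 16.89 log2 with glutamine. Cd4 averaged 16.44 ± 0.11 log2 without and 16.58 ± 0.07 log2 with glutamine (SD, n = 3 each), and Cd3e 16.90 ± 0.06 and 16.89 ± 0.07 log2. Of the 8 T cell markers, 2 rose: Cd3d by 0.88 (adjusted p = 0.0174, limma) and Cd5 by 0.51 (adjusted p = 0.0118), and the other 6 did not pass. The part of these shifts in the integrin levels was not tested. In such bulk RNA, fewer cells of a type and less RNA per cell cannot be told apart.

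Glutamine-free cultures carried less RNA of the beta1 and beta3 chains and of 4 alpha chains, among them alpha3, and slightly more of alpha6. Of the 25 chains, 6 fell (Itga3, Itga7, Itgb3, Itga4, Itgb1 and Itga2), 4 rose (Itga6, Itga9, Itgal and Itgae) and 15 did not pass. Over all genes 22.3% passed, 13.0% as falls and 9.30% as rises. The falls ranged from -3.21 (Itga3) to -0.60 (Itga2), while the rises lay between 0.39 and 0.57. All 6 falls also passed after quantile normalization and after centring, but of the rises only Itga6 did, beside rises of 4.73% and 3.95% and falls of 17.1% and 20.0% of all genes under these scalings. By at least 1 log2, 5 chains fell and 0 rose (limma; 7 rose at an unadjusted p under 0.05 at any size), against 2.84% and 1.24% of all genes. The median change of the 25 chains was 0.014, beside 0.060 over all genes; its sign turned to -0.11 after quantile normalization and -0.14 after centring, as did that of all genes. The groups did not overlap in 15 chains, beside 43.8% of all genes.

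**Figure D1:**
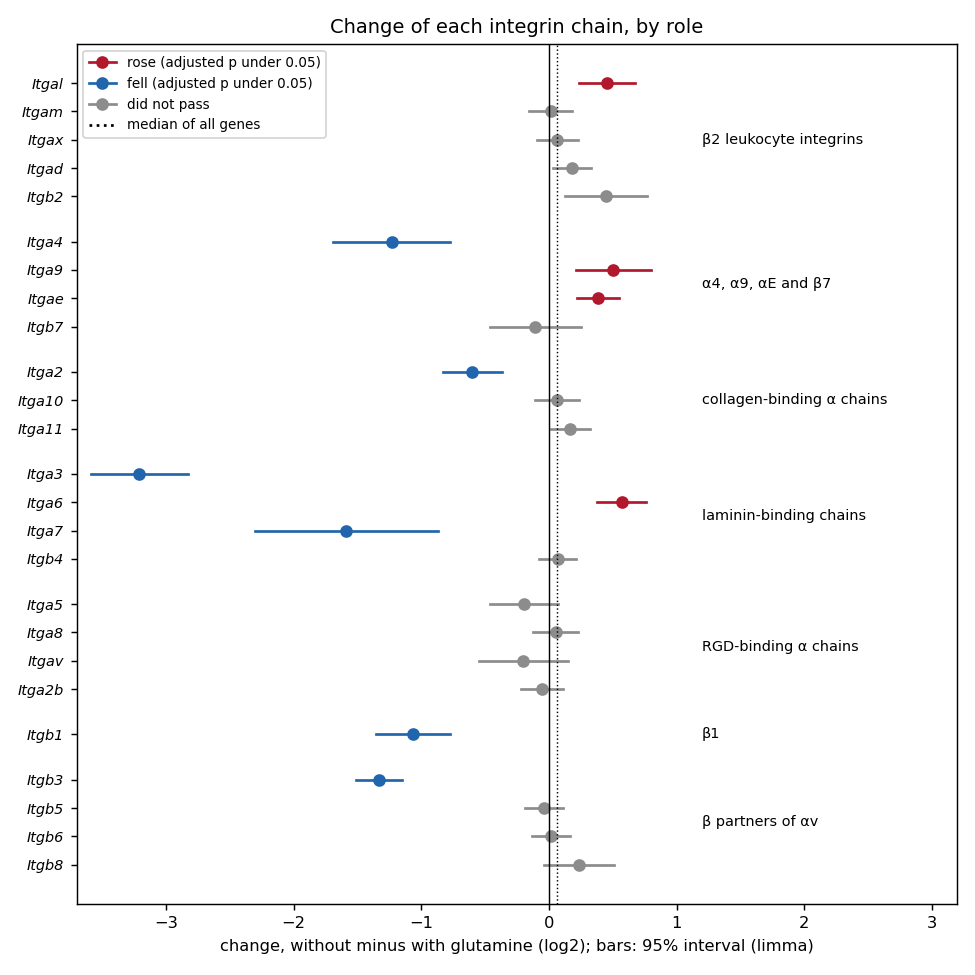
The change of each of the 25 integrin chains (log2, without minus with glutamine; points, with limma's 95% interval as bars) is shown by role, with the median change of all genes as a dotted line. Itga3 lies farthest from 0 at -3.21, and the 4 rises stay between 0.39 and 0.57; those of Itga9, Itgal and Itgae did not pass after either scaling.

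Before the single chains, the upstream sequences of Itga3, Itga4 and Itgb1, which fell, are shown: alpha3 and alpha4 both form receptors with beta1. The sequences are the 250 bases before the annotated start in RefSeq, build GRCm38.p6, at chr11:95076715-95076964 (minus strand) for Itga3, chr2:79255176-79255425 (plus strand) for Itga4 and chr8:128685404-128685653 (plus strand) for Itgb1. They are written 5′ to 3′ along the gene, and capitals mark the GC box GGGCGG, the core bound by SP and KLF factors, which was searched on both strands.
Itga3: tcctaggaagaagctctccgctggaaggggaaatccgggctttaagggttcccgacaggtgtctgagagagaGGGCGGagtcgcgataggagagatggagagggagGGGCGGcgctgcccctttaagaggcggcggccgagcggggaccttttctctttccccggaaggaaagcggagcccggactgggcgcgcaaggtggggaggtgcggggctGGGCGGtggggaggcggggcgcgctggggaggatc
Itga4: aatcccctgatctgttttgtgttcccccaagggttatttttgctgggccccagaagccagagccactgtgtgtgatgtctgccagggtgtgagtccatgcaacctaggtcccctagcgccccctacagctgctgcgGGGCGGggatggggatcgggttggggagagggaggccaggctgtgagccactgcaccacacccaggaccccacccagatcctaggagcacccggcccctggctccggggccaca
Itgb1: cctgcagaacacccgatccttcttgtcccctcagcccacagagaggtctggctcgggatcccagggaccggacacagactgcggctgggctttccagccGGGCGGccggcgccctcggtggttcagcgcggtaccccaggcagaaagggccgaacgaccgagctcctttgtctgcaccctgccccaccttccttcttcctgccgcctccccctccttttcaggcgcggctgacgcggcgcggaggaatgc
The GC box occurs 3 times upstream of Itga3 and 1 time each upstream of Itga4 and Itgb1. The upstream sequence of Itga2, which also fell and pairs with beta1, is not printed and holds 0 GC boxes. No promoter sequence was available here for Itgad, Itgb2 and Itgb4, for Itga7 and Itgb3, which fell, or for Itga6, Itgal and Itgae, which rose. The motif counts leave these chains out. The GC box was present in 6 of the 17 integrin chains with a promoter sequence, 35.3%, beside 32.7% of all 32851 promoters. The others with it were Itga5, Itgam and Itgb5, and none of these passed. The SMAD element CAGAC, on both strands, was present upstream of all 3 chains and of 8 of the 17 (47.1%), beside 42.2% of all promoters. The hypoxia response core ACGTG was in 1 of the 17 (Itga9), beside 16.6% of all promoters. TGTGGT, bound by RUNX factors, was in 1 (Itga4, beside 14.0%), TGANTCA, bound by AP-1, was in 1 (Itgax, beside 6.75%), and CGGAAG, bound by ETS factors, was in 2 (Itga3 and Itgav, beside 13.6%). No base upstream of the 3 chains lay in 2 of these motifs. Such letters are a description and not binding sites.

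The beta1 chain gene Itgb1, the common partner of most matrix-binding alpha chains, fell. Its levels were 12.05, 11.88 and 11.60 log2 in the cultures without glutamine, against 12.94, 12.96 and 12.83 log2 in those with glutamine. The groups did not overlap, and the change was -1.07 ± 0.12 (SE; adjusted p = 0.00193, limma). The highest adjusted p over the alternatives was 0.0256, with an unmoderated statistic.

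Among the laminin-binding chains, 2 fell, 1 rose and 1 did not pass, with a median change of -0.76. Itga3, which pairs with beta1 and binds laminins of epithelial basement membranes, had the largest change of the family. It stood at 8.04, 7.63 and 7.70 log2 without glutamine, against 10.81, 11.27 and 10.92 log2 with it. Every array without glutamine lay over 2 log2 below every array with it, and the change was -3.21 ± 0.16 (SE; adjusted p = 0.000123). After quantile normalization the change was -3.29, and after centring -3.36.

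Itga7, a laminin receptor chain known best from muscle, had 4.56, 4.74 and 4.57 log2 without glutamine, against 6.13, 6.89 and 5.60 log2 with it. The arrays without glutamine sat near the array medians and close together, whereas those with glutamine were spread over more than 1 log2 (SD 0.65). Its fall of -1.59 ± 0.30 (SE; adjusted p = 0.0123) missed the threshold with the unmoderated statistic (adjusted p = 0.0744). Itga6, whose product pairs with beta1 as a laminin receptor found on T cells, went the opposite way. It had 9.73, 9.58 and 9.75 log2 without glutamine, against 9.14, 9.19 and 9.03 log2 with it. The change was 0.57 ± 0.08 (SE; adjusted p = 0.00432), and it was 0.53 after quantile normalization and 0.41 after centring. Itgb4, which pairs with alpha6 in epithelial hemidesmosomes, was dim, at 4.01 ± 0.02 log2 without and 3.94 ± 0.02 log2 with glutamine (SD, n = 3; adjusted p = 0.455).

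**Figure D2:**
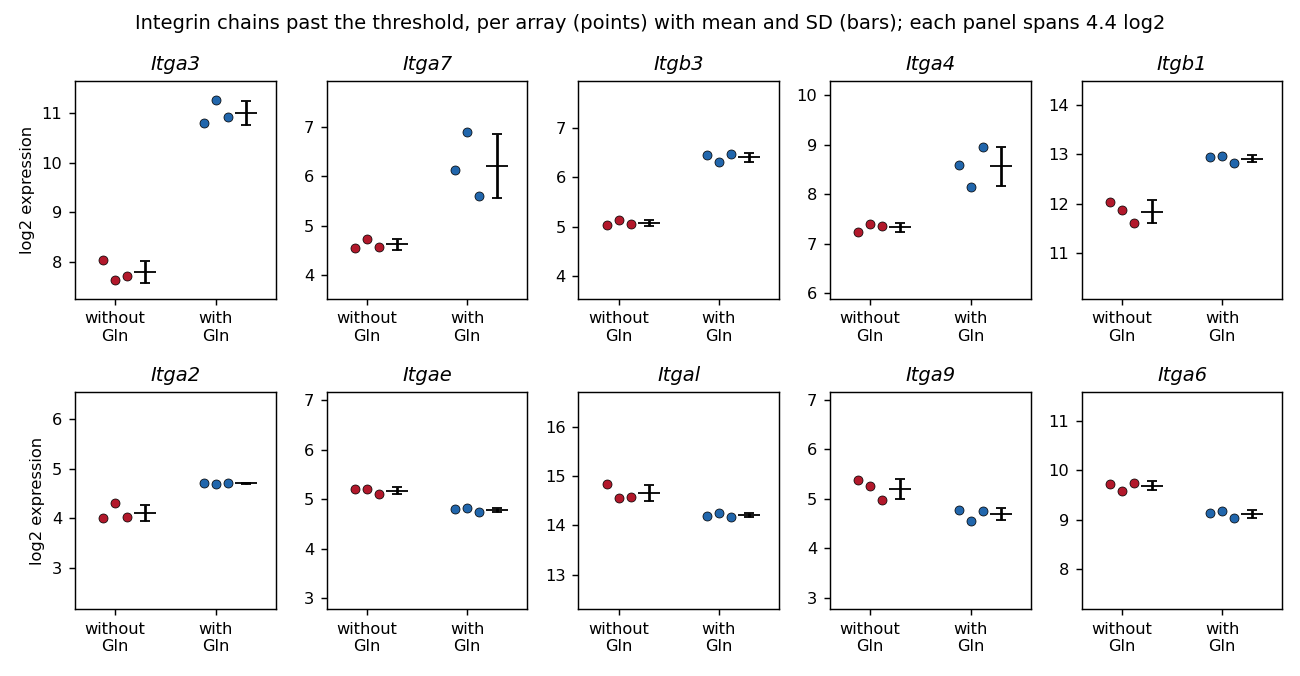
Log2 levels of the 10 integrin chains past the threshold are plotted per array (points), cultures without glutamine at the left of each panel and with glutamine at the right, with the mean and SD beside them; all panels have the same height in log2 units. The groups are farthest apart in Itga3 (7.79 and 10.998 log2 on average), and Itga7 varies most among the arrays with glutamine (5.60 to 6.89 log2).

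The alpha4 chain gene Itga4, whose product pairs with beta1 as VLA-4 and with beta7 as the gut-homing receptor, fell. It had 7.23, 7.40 and 7.36 log2 without glutamine, against 8.59, 8.15 and 8.94 log2 with it. The groups did not overlap and the change was -1.23 ± 0.19 (SE; adjusted p = 0.00621), with an adjusted p of 0.0505 for the unmoderated statistic. Its beta partner Itgb7 had 10.28, 10.19 and 10.18 log2 without glutamine, against 10.44, 10.55 and 9.98 log2 with it. These groups overlapped, and the change of -0.11 had a 95% interval of -0.46 to 0.25 (adjusted p = 0.637).

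Itgae encodes alphaE (CD103), the partner of beta7 in binding E-cadherin and a chain that TGF-beta induces in T cells. Its levels were 5.21, 5.21 and 5.10 log2 without glutamine, against 4.80, 4.82 and 4.74 log2 with it. The groups did not overlap, and the change was 0.39 ± 0.07 (SE; adjusted p = 0.00982). Itga9, a relative of alpha4 that pairs with beta1, had 5.37, 5.25 and 4.97 log2 without glutamine, against 4.77, 4.55 and 4.75 log2 with it. Both rises lay at low levels, though above the median gene level, and depended on the scaling. For Itgae the change was 0.20 after quantile normalization (adjusted p = 0.12) and 0.23 after centring (adjusted p = 0.0634). For Itga9 the change of 0.50 (adjusted p = 0.0288) was 0.32 and 0.35 after these scalings (adjusted p = 0.133 and 0.0876). The call of Itga9 was also lost on leaving out array 1 (adjusted p = 0.0758) or 2 (0.0963) of the cultures without glutamine, or array 1 (0.0548) or 2 (0.0921) of those with glutamine.

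Of the beta2 leukocyte integrin chains, 1 of 5 rose and none of the other 4 passed, near the 22.3% of all genes. Their median change was 0.18 on the deposited scale, 0.041 after quantile normalization and 0.025 after centring. Itgal encodes alphaL, which with beta2 forms LFA-1, the receptor that binds ICAM-1 at the contact with an antigen-presenting cell. It had 14.84, 14.56 and 14.57 log2 without glutamine, against 14.20, 14.25 and 14.17 log2 with it. The partner Itgb2 had 15.01, 14.98 and 14.60 log2 without glutamine, against 14.45, 14.54 and 14.25 log2 with it. Neither pair of groups overlapped, and the changes were 0.45 ± 0.09 for Itgal (SE; adjusted p = 0.0162) and 0.45 ± 0.13 for Itgb2 (SE; adjusted p = 0.0568). Itgal missed the threshold after quantile normalization (change 0.24, adjusted p = 0.209) and centring (0.30, adjusted p = 0.082). Itgb2 passed when array 3 of the cultures without glutamine was left out (adjusted p = 0.0244). It also passed among genes above the median level (0.037), with the replicate block (0.0228) and among protein coding genes only (0.036). It did not pass after quantile normalization (0.156) or centring (0.183), and its adjusted p lay between 0.0228 and 0.183 over all its alternatives. The myeloid partners of beta2 were dim in both groups. Itgam (CD11b) averaged 3.93 ± 0.07 log2 without and 3.91 ± 0.05 log2 with glutamine, Itgax (CD11c) 4.15 ± 0.06 and 4.08 ± 0.04 log2, and Itgad (CD11d) 4.15 ± 0.05 and 3.97 ± 0.01 log2 (SD, n = 3 each).

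None of the RGD-binding alpha chains passed (0 of 4, limma; also 0 at an unadjusted p under 0.05). Itgav, the alphav chain that pairs with several beta chains, had 11.48, 11.19 and 11.18 log2 without glutamine, against 11.27, 11.76 and 11.43 log2 with it. The groups overlapped, and the 95% interval of the change of -0.20 ran from -0.55 to 0.15 (adjusted p = 0.356). Without array 2 of the cultures with glutamine the change was -0.067. Itga5, the fibronectin receptor chain, had 8.28, 7.92 and 8.25 log2 without glutamine, against 8.30, 8.32 and 8.43 log2 with it, a change of -0.20 (95% interval -0.46 to 0.07; adjusted p = 0.246). Without array 2 of the cultures lacking glutamine that change was -0.083. Itga8, and Itga2b, which encodes the alpha chain of the main platelet integrin, averaged 3.62 ± 0.10 and 4.63 ± 0.06 log2 without glutamine, against 3.57 ± 0.01 and 4.69 ± 0.06 log2 with it (SD, n = 3).

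Among the beta partners of alphav, Itgb3 fell and the other 3 did not pass. Itgb3, which forms the vitronectin receptor with alphav, had 5.03, 5.14 and 5.06 log2 without glutamine, against 6.45, 6.30 and 6.46 log2 with it. The change was -1.33 ± 0.08 (SE; adjusted p = 0.000197), and the adjusted p was at most 0.00784 over its alternatives. Itgb3 also marks platelets, and 2 of 4 measured platelet markers fell with it. Ppbp had 4.28, 3.86 and 5.28 log2 without glutamine, against 7.96, 7.58 and 8.14 log2 with it, and Pf4 had 5.04, 5.28 and 5.30 log2, against 7.72, 6.84 and 7.14 log2. The platelet glycoprotein genes Gp9 and Gp6 stood at 4.90 ± 0.15 and 3.50 ± 0.11 log2 without glutamine, against 5.00 ± 0.17 and 3.66 ± 0.12 log2 with it (SD, n = 3), and neither passed. The summed log2 level of the 4 markers was 17.55 to 18.83 without and 22.84 to 24.27 with glutamine. Its difference comes mostly from Ppbp (change -3.42) and Pf4 (-2.03), beside -0.10 for Gp9 and -0.15 for Gp6. The part of these markers in the fall of Itgb3 was not tested.

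Itgb8, whose product with alphav activates latent TGF-beta, had 6.30, 6.12 and 6.04 log2 without glutamine, against 5.76, 6.10 and 5.89 log2 with it. These values overlapped, and the change of 0.24 did not pass (95% interval -0.03 to 0.51; adjusted p = 0.184). Itgb5 and Itgb6, 2 more partners of alphav, were dim: they averaged 4.002 ± 0.04 and 3.41 ± 0.04 log2 without glutamine, against 4.04 ± 0.03 and 3.40 ± 0.01 log2 with it (SD, n = 3).

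Of the 3 measured collagen-binding alpha chains, Itga2 fell. Its product pairs with beta1 as a collagen receptor. It had 3.999, 4.30 and 4.02 log2 without glutamine, against 4.71, 4.69 and 4.71 log2 with it. The groups did not overlap and the change was -0.60 ± 0.10 (SE; adjusted p = 0.00675), but both levels lie near the array medians. Itga10 averaged 4.56 ± 0.06 log2 without and 4.50 ± 0.07 log2 with glutamine, and Itga11 3.54 ± 0.05 and 3.38 ± 0.03 log2 (SD, n = 3), and neither passed.

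By brightness, most calls lay among the brighter rows. Of the 14 chains above the median gene level, 9 passed, beside 38.7% of all genes above it. Of the 11 at or below it, 1 passed (Itga2), beside 5.92% of all genes there. The level used was the mean over both groups, and Itga7 entered the 14 only through the arrays with glutamine (mean 6.21 log2). Its mean without glutamine was 4.62 log2, below the gene medians of the arrays without glutamine (4.72 to 4.77 log2). Detection calls were not used here, so whether a dim row held signal is unknown. By position, 5 chains lie on chromosome 11, 5 on chromosome 2 and 4 on chromosome 7 (Itgal, Itgam, Itgax and Itgad).

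The changes of the 2 chains of a receptor were also set against each other. For 8 alpha and beta pairs, selected after the values were seen, the log2 difference between the chains was taken within each array. A constant shift of a whole array drops out of it, but quantile normalization does not. The latter moved the change of Itgae from 0.39 to 0.20 and that of Itgb7 from -0.11 to -0.12. With 3 arrays a group, the exact two-sided permutation test cannot go below p = 0.1, so none can pass 0.05. Between Itgal and Itgb2 this difference changed by 0.0051 (SD 0.20 without and 0.11 with glutamine; exact permutation p = 1). Between Itga4 and Itgb1 it changed by -0.17 (SD 0.29 without and 0.46 with glutamine; exact permutation p = 0.6). The difference to Itgb1 changed by -2.14 for Itga3 and by 1.63 for Itga6. Against Itgb7, the difference changed by -1.13 for Itga4 and by 0.49 for Itgae. Itgav changed by 1.13 relative to Itgb3 and by -0.44 relative to Itgb8. Each of these 6 reached an exact permutation p = 0.1, the smallest possible, or 0.133 adjusted over the 8 pairs, so no pair passed.

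**Figure D3:**
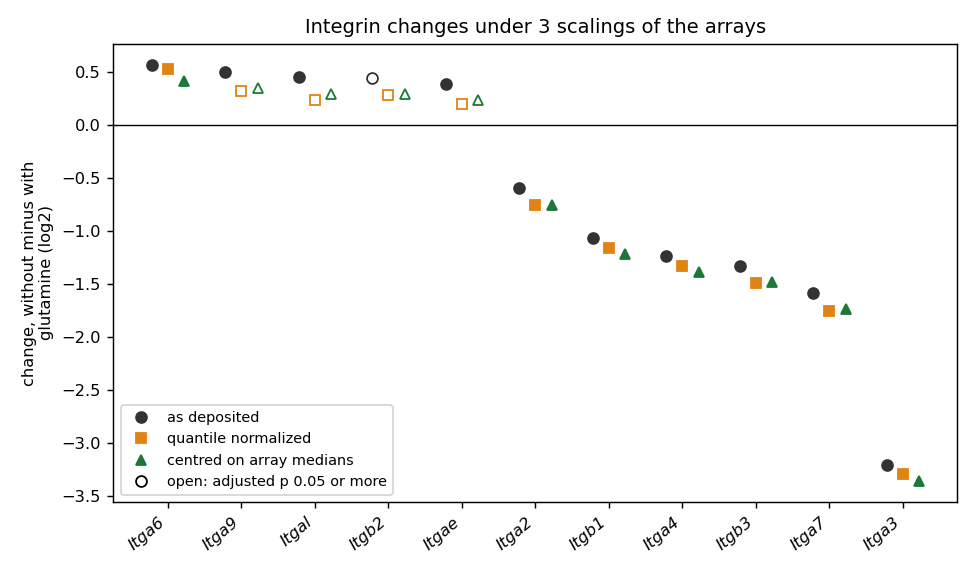
Changes (log2, without minus with glutamine) of the 10 integrin chains past the threshold and of Itgb2 are shown as deposited (circles), after quantile normalization (squares) and after centring on array medians (triangles); open symbols have an adjusted p of 0.05 or more. The 6 falls keep filled symbols under all 3 scalings, and of the rises only Itga6 does.

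Of the cytosolic machinery around the integrins, genes passed in both directions, at shares near the 22.3% of all genes (9.30% as rises, 13.0% as falls). Of 20 measured genes of inside-out activation, 2 rose and 3 fell (1 and 4 after quantile normalization, 1 and 6 after centring). The median change was 0.036 on the deposited scale, -0.059 after quantile normalization and -0.12 after centring. Skap1, an adaptor that links the T cell receptor to LFA-1 activation, averaged 10.56 ± 0.10 log2 without and 9.73 ± 0.02 log2 with glutamine (SD, n = 3; change 0.82, adjusted p = 0.000933). Its paralog Skap2 averaged 8.97 ± 0.06 and 9.66 ± 0.05 log2 (change -0.69, adjusted p = 0.00121). Fermt3, which encodes kindlin-3, an activator that binds beta tails, fell by 0.61 (adjusted p = 0.044), and Flna, which encodes filamin A, a protein that binds the same tails, rose by 0.42 (adjusted p = 0.0325). The call of Flna was lost after both scalings and on leaving out any array but array 2 without or array 1 with glutamine (adjusted p = 0.0753 to 0.0945). Fermt3 missed the threshold without any array but array 3 with glutamine (0.0519 to 0.125). Of 18 genes of adhesion complexes and outside-in signalling, 3 rose and 2 fell (2 and 4 after quantile normalization, 0 and 6 after centring). Their median change was 0.086, and it was -0.026 and -0.070 after these scalings. Vcl, which encodes vinculin, the protein that ties talin to actin, had 5.60, 5.64 and 5.69 log2 without glutamine, against 7.46, 7.64 and 7.35 log2 with it (change -1.84, adjusted p = 0.000123). Bcar1, the scaffold p130Cas, fell by 0.54 (adjusted p = 0.00435). Ptk2b, the kinase PYK2, rose by 0.47 and Lims1, the adaptor PINCH1, by 0.39 (adjusted p = 0.0156 and 0.0405), and neither passed after centring (0.0527 and 0.174). Ptk2b also missed it without array 3 of the cultures lacking glutamine (0.0524), and Lims1 without any array but array 3 of either group (0.096 to 0.112).

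Integrin ligands were also read on the arrays. Of 11 cell surface ligands, 1 rose and 3 fell (0 and 4 after centring), beside 22.3% of all genes called in either direction. The median of these 11 changes was -0.027, and after quantile normalization and centring it was -0.15 and -0.18. Icam1, the ligand of LFA-1, had 8.87, 8.81 and 8.93 log2 without glutamine, against 9.80, 9.61 and 9.83 log2 with it (change -0.88, adjusted p = 0.00103). Jam2, a junctional adhesion molecule gene, fell by 0.61 (adjusted p = 0.00231) and L1cam, a neural adhesion molecule gene, by 0.32 (0.047), while Icam2, another ligand of LFA-1, rose by 0.57 (0.0282, and 0.0661 after centring). Jam2 was dim, at 3.80 ± 0.04 log2 without and 4.41 ± 0.08 log2 with glutamine (SD, n = 3). L1cam missed the threshold on leaving out any array but array 3 without glutamine (0.086 to 0.142), and Icam2 any but array 3 with glutamine (0.0576 to 0.0866). Of 20 matrix ligands, 0 rose and 4 fell (0 and 5 after either scaling), near the share of all genes; 1 rose at an unadjusted p under 0.05 (limma). Their median change was 0.076 and turned to -0.031 after quantile normalization and -0.080 after centring. Lamc1, the gamma1 chain of the laminins, had 7.22, 7.004 and 7.16 log2 without glutamine, against 8.27, 8.66 and 8.24 log2 with it (change -1.26, adjusted p = 0.00142). Thbs1 (-0.59), which encodes thrombospondin-1, a matrix protein that also binds CD47, Mfge8 (-0.51), whose product bridges alphav integrins to dying cells, and Npnt (-0.39), the gene of the alpha8 beta1 ligand nephronectin, fell too, at adjusted p values of 0.00525, 0.0114 and 0.0281. The call of Npnt was lost on leaving out any array but array 1 with glutamine (0.0541 to 0.0858).

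Of 9 genes of latent TGF-beta and its carriers, 2 rose and 1 fell (0 and 1 after quantile normalization, 1 and 1 after centring), beside 22.3% of all genes. Their median change was 0.18, and it was 0.049 and 0.029 after these scalings. Tgfb1, the cytokine gene itself, averaged 14.63 ± 0.11 log2 without and 13.99 ± 0.12 log2 with glutamine (SD, n = 3; change 0.64, adjusted p = 0.00492, and 0.0631 after quantile normalization). Lrrc32, which encodes GARP, a protein that holds latent TGF-beta on the cell surface for alphav beta8, rose by 0.73 (adjusted p = 0.037), and Nrros, a related carrier, fell by 0.33 (0.0442). Both calls were lost on leaving out any array but array 1 without glutamine (adjusted p = 0.0506 to 0.0934 for Lrrc32 and 0.0748 to 0.12 for Nrros), and Lrrc32 did not pass after either scaling.

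Of the tetraspanins, membrane proteins that associate with integrins, taken with Cd47, 2 of 9 rose and 4 fell (1 and 4 after quantile normalization, 1 and 5 after centring), beside 22.3% of all genes. Their median change was -0.20, and -0.36 and -0.35 after these scalings. Cd9 (-0.62, adjusted p = 0.0103) and Cd151 (-0.51, adjusted p = 0.0104), a tetraspanin that binds alpha3 beta1 directly, fell. Cd151 had 6.48, 6.66 and 6.46 log2 without glutamine, against 7.15, 6.93 and 7.06 log2 with it. Tspan32 (0.56, adjusted p = 0.00472) and Cd37 (0.54, adjusted p = 0.0261) rose, but Cd37 did not pass after either scaling, nor on leaving out any array but arrays 2 and 3 with glutamine (0.0536 to 0.0825). Among 7 other adhesion and exit receptors, 2 rose and 1 fell (1 and 1 after centring), beside the same 22.3%. Their median change was 0.063, and it was 0.0030 after quantile normalization and -0.092 after centring. Cd226 (DNAM-1), a receptor that associates with LFA-1, had 8.61, 8.72 and 8.46 log2 without glutamine, against 10.82, 10.96 and 10.74 log2 with it (change -2.24, adjusted p = 8.83e-05). Cd69, an early activation marker that keeps T cells in tissue, rose by 1.10 (adjusted p = 0.00447), and Spn, which encodes CD43, rose by 0.57 (0.0206, and 0.0595 after centring). Spn missed the threshold on leaving out array 1 or 3 without glutamine (0.065 and 0.0664) or array 2 with it (0.0528).

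**Figure D4:**
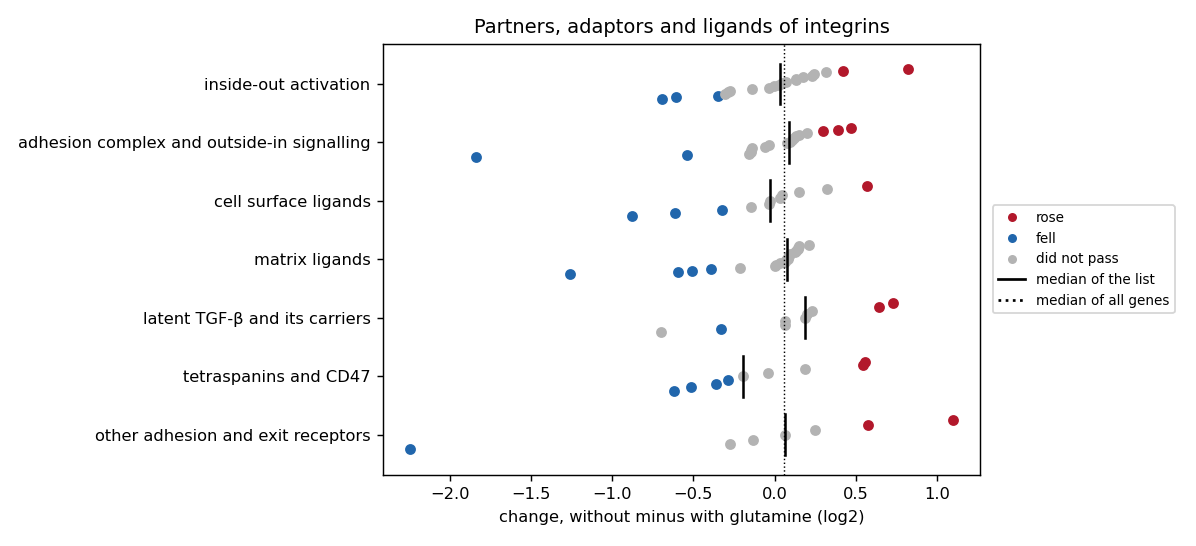
Each point is 1 gene of 7 lists of integrin activators, adhesion complex proteins, ligands, TGF-beta carriers, tetraspanins and other adhesion receptors, placed at its change (log2, without minus with glutamine); red points rose, blue points fell and grey points did not pass. Vcl (-1.84), Cd226 (-2.24) and Lamc1 (-1.26) lie farthest to the left, and the list medians on the deposited scale (bars) lie between -0.20 and 0.18, around the median of all genes (dotted line).

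Markers of other cell types were mostly dim. At or below the median gene level were 7 of 9 myeloid, 4 of 5 dendritic cell, 4 of 4 B cell and 2 of 3 NK cell markers. So were 2 of 4 mast cell and basophil, 3 of 4 fibroblast and 3 of 4 epithelial markers. Only 1 of 4 platelet markers lay there, and 1 of 2 CD8 T cell markers. These levels are means over both groups, and Ppbp and Lyz2 lay above only through the arrays with glutamine. Their means without glutamine were 4.47 and 4.14 log2. In the myeloid list Lyz2 fell by 1.66 and S100a8 fell by 0.55 (adjusted p = 0.00137 and 0.033, limma), and Cd68 rose by 1.58 (0.00128). The summed log2 level of the 9 myeloid markers was 38.76 to 39.43 without and 39.56 to 40.28 with glutamine. Of the 4 mast cell and basophil markers, Mcpt8 fell by 0.73 (adjusted p = 0.0151) and Cpa3, a bright row at 10.34 ± 0.18 log2 without and 10.71 ± 0.03 log2 with glutamine (SD, n = 3), fell by 0.38 (0.0411). Fcer1a (change -0.048, adjusted p = 0.685) and Kit (change 0.097, adjusted p = 0.336) did not pass. The summed level of the 4 was 24.77 to 25.09 log2 without and 25.80 to 26.06 log2 with glutamine. Of the 2 CD8 T cell markers, Cd8b1 fell by 0.71 (adjusted p = 0.0117), and Cd8a was dim, at 3.78 ± 0.06 log2 without and 3.83 ± 0.08 log2 with glutamine (SD, n = 3; adjusted p = 0.634). Of the 4 epithelial markers Epcam alone passed and rose by 0.57 (adjusted p = 0.00289), while Krt8 changed by 0.020, Krt18 by -0.049 and Krt5 by 0.071. In the fibroblast list Lum alone passed and fell by 4.37 (adjusted p = 6.78e-05), while Dcn changed by -0.22, Col1a1 by 0.13 and Col1a2 by 0.14. The sum over these 4 was 17.02 to 17.53 log2 without and 21.38 to 21.71 log2 with glutamine, and its difference comes from Lum. Whether other cells contributed to the integrin levels was not tested.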

How the data were processed

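Per the submitters' processing notes, the authors made the deposited log2 values with RMA in the Transcriptome Analysis Console 4.0; its options, annotation and build: not given in the sources used here. All 6 columns entered as deposited (0 columns of other samples). Rows were named through the platform's gene table, and older symbols were replaced using RefSeq's genes for GRCm38.p6. Among 65956 rows, 31225 held 1 gene, 1525 held several and 33206 had no name here. The brightest row stood for each of the 438 symbols with more than 1 row, leaving 30672 genes. The test was limma 3.58.1 (eBayes after lmFit, two-sided, R 4.3.3), with no covariate and with Benjamini-Hochberg adjustment over all genes. SE values and intervals are limma's. A simulation used the spread of these 30672 genes, with 50 genes changed at each size and no shift of whole arrays. Recovery was 40% for changes of 0.5 log2, 76% for 1, 98% for 2 and 100% for 3, and 9 calls were false. Far more genes passed in the data (6837), so these rates need not hold for this fit.

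The integrin chains, the lists of partner genes and the tests were chosen with earlier results of these data known. Every chain is named; of each partner list, up to 4 members past the threshold with the largest changes are named. Some list members, 5 cell type markers among them, are not analysed here. Alternatives were other scalings, a filter on dim genes, other uses of rows, moderation, array weights and thresholds, the replicate number as a block, leaving out each array and, added after seeing the data, protein coding genes only. No label says that the replicate numbers pair the arrays. The number of arrays limits the precision. Exact permutation tests used scipy 1.17.1, and figures matplotlib 3.10.9 in Python 3.11.15.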

Additional observations from a re-analysis of the deposited data

How the results depend on the processing

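All 6 falls among the integrin chains passed after quantile normalization, after centring on array medians and without each array in turn. The rises were less stable: 4 chains rose as deposited, 1 after quantile normalization, 1 after centring, 2 at an adjusted p under 0.01, 0 by at least 1 log2 (limma), and 3 to 5 when 1 array was left out. Itga9 lost its call when array 1 or 2 of either group was left out. With the unmoderated statistic 3 chains rose (Itga6, Itgae and Itgad) and 4 fell (Itga3, Itgb1, Itgb3 and Itga2). With it, Itgal (adjusted p = 0.0558), Itga9 (0.0945), Itga4 (0.0505) and Itga7 (0.0744) lost their calls and Itgad gained a call (0.0351). Over all genes, 6837 passed as deposited, 3827 with the unmoderated statistic, 2937 at an adjusted p under 0.01, 1252 with a change of at least 1 log2, and 4052 to 6492 when 1 array was left out; the lowest counts came on leaving out array 2 without glutamine (4052), array 2 with glutamine (4338) or array 3 without glutamine (4554). The titles share replicate numbers, but no label says that they pair the arrays. Deviations of same-numbered arrays correlated at 0.066, -0.23 and 0.28, and those of differently numbered arrays at -0.33 to 0.30. With 3 arrays a group, these values cannot decide whether the numbers pair the arrays. With the replicate block 6288 genes passed, and 5 chains rose and 6 fell. The share of rises among all calls was 41.7% on the deposited scale, 21.7% with quantile normalization and 16.5% with centring. Of the chains that did not pass, 6 dim ones changed sign after quantile normalization and after centring: Itgam (-0.12 and -0.14), Itgax (-0.075 and -0.089), Itga10 (-0.11 and -0.092), Itgb4 (-0.063 and -0.088), Itga8 (-0.050 and -0.10) and Itgb6 (-0.078 and -0.14). When 1 array was left out, the change of Itgam ranged from -0.018 to 0.050, that of Itgb7 from -0.27 to 0.0078 and that of Itgb6 from -0.0091 to 0.029. The cause of these shifts was not tested. Without detection calls, changes of rows near the array medians have no known floor.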

Other observations

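The integrin-like genes whose symbols resemble those of the chains were dim in both groups. Itgb2l, which encodes a beta2-like protein (pactolus), had 3.62, 3.75 and 3.73 log2 without glutamine, against 3.50, 3.62 and 3.57 log2 with it (change 0.14, adjusted p = 0.212, limma). Itgbl1 had 3.45, 3.57 and 3.57 log2 without glutamine, against 3.38, 3.42 and 3.57 log2 with it (change 0.072, adjusted p = 0.548).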
